A study of Mus musculus with 8 samples.

Results

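Receptors for hematopoietic growth factors let blood cells respond to the cytokines that keep them alive and drive their maturation. The genes described here are Kit, Flt3, Csf3r, Csf2ra, Csf2rb, Csf2rb2, Il3ra, Il6ra and Epor, which are 9 of 21938 protein-coding genes. They were chosen by name, as receptors of this family. Peaks of acetylated histone H3 lysine 9 (H3K9ac), a mark of active promoters, were taken at their promoters and in their gene bodies. These came to 32 of 41312 peaks in the GFI1-36S vehicle list and 11 of 20354 in the GFI1-36S curcumin list. The GFI1-36N lists held 28 of 39564 peaks with vehicle and 35 of 49213 with curcumin, and the GFI1-KD lists 23 of 39272 and 22 of 30784.

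H3K9ac was profiled by ChIP-seq in frozen bone marrow (BM) cells of C57BL/6 mice. The labels and the paper's methods name BM cells, but the title of a figure in the paper names c-kit+ cells. Whether cells were selected by c-kit, the product of Kit, is thus unclear. There was 1 library for each of 3 genotypes and each of vehicle and curcumin, so that 6 libraries were compared. All mice, controls included, carried the Nup98-HOXD13 transgene, a fusion gene used to model myelodysplastic syndrome (MDS) that can progress to acute myeloid leukaemia (AML). GFI1-36S mice express the human cDNA of the common form of the transcriptional repressor GFI1 from the murine locus, GFI1-36N mice the variant with asparagine in place of serine, and GFI1-KD mice have reduced GFI1 expression. Curcumin, a plant polyphenol that inhibits histone acetyltransferases, was injected weekly at 20 mg/kg into the peritoneum, and vehicle was DMSO. The study asked whether curcumin changes the acetylation that accompanies GFI1-36N and low GFI1. Since every group is 1 library, no difference could be set against the spread between replicates and no test across mice was possible. The age of the mice, and whether a library came from 1 mouse or several, are not given in the sources used here. In a mixture of BM cells, fewer cells of a type and less acetylation per cell cannot be told apart.

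Several facts of the libraries touch the results. For GFI1-36S the treatment in each list name is the reverse of the label, and the labels were followed. The list names also give a heterozygous mouse for GFI1-36N vehicle and a homozygous mouse for GFI1-36N curcumin, so that zygosity and treatment cannot be told apart in this pair. The library labelled GFI1-36S curcumin stood apart. It held no promoter peak at any of 15 neutrophil or 10 stem and progenitor marker genes and a peak at 1 of 11 erythroid and 2 of 9 monocyte markers, but at 14 of 15 T-cell markers. In the other 5 libraries, 8 to 14 neutrophil and 4 to 8 T-cell markers had a peak. Over all 6 libraries, 0 to 3 of 9 B-cell, 1 to 2 of 6 NK-cell, 0 to 3 of 5 mast cell and basophil and 0 to 3 of 4 megakaryocyte markers had one. The lists give no read totals. The fragments under each summit were recovered from fold enrichment and p for 99.7% or more of each list. The median was 24 to 36 fragments per summit. The genome background was 4.32 to 5.66 on the caller's pile-up of fragments, which is scaled by library. On that scale 1 fragment counts 0.84 to 1.0, so background values are not fragment counts.

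Each receptor is known for a stage or lineage. Kit binds stem cell factor and Flt3 binds FLT3 ligand, and both are receptor tyrosine kinases of stem and progenitor cells that are mutated or highly expressed in many leukaemias. Csf3r, the receptor for G-CSF, drives neutrophil production. Csf2ra and Il3ra are the ligand-binding chains for GM-CSF and interleukin-3, and Csf2rb is the common signalling chain that they share. Csf2rb2 is a close copy of Csf2rb found in mice that serves interleukin-3 alone. Il6ra binds interleukin-6 and signals through the shared chain Il6st, and Epor keeps erythroid precursors alive. The cytokine receptors have no kinase of their own and signal through JAK kinases and STAT factors.

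Promoters are shown first for 4 receptor genes that recur below, with an internal site of Flt3. RefSeq promoter entries for GRCm38.p6, the build that mm10 denotes, were found for 8 of the 9 genes, and Csf2rb is named only. For Il6ra no stretch free of annotated exons was left in the 250 bases, and none is printed. Each sequence runs 5′ to 3′ on the strand of the gene and is the longest run without an annotated exon in the 250 bases before the RefSeq start, or lies within an intron. Capitals mark matches, on either strand (a match on the opposite strand shows its reverse complement), to letters bound by hematopoietic or general factors: AGATAA for GATA factors, GAGGAA for PU.1, CCGGAA for ETS factors, TGTGGT for RUNX factors, AAATCA for GFI1, TTCNNNGAA for STAT factors, GGGCGG for the GC box and TATAAA for the TATA box.
Kit promoter, chr5:75574737-75574915, plus strand: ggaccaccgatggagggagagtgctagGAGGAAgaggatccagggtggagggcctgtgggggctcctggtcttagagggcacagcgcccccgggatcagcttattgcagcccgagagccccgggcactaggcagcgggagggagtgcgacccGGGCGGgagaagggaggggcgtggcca
Csf3r promoter, chr4:126024409-126024549, plus strand: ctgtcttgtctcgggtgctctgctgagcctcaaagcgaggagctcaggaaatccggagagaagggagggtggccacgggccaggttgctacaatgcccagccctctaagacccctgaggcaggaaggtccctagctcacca
Epor promoter, chr9:21963577-21963826, minus strand: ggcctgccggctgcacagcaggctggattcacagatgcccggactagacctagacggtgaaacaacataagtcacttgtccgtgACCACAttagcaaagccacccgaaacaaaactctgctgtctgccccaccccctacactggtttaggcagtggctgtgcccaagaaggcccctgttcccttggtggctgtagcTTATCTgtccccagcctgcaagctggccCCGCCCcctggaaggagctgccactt
Flt3 promoter, chr5:147400490-147400739, minus strand: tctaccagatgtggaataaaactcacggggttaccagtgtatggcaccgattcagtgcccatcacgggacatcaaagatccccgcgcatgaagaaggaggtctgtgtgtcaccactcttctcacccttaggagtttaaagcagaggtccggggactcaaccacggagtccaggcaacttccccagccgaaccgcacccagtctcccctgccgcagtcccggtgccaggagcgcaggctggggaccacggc
Flt3 intron 1 site, chr5:147393327-147393526, minus strand, 200 bases around its summit: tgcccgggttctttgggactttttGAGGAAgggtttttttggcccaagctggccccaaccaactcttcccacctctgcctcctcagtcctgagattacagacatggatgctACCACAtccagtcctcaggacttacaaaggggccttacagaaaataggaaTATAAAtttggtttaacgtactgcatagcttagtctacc

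The Kit promoter held a PU.1 match and a GC box. The Epor promoter held GATA, RUNX and GC box matches. The printed Csf3r and Flt3 promoters held none of the 8 motifs. Over the full 250 bases before each RefSeq start, the GATA letters were found in 2 of 8 genes, Epor and Il6ra, and in 10.3% of 27025 genes with an entry. The PU.1 letters were found in 5 of 8 genes (Kit, Csf3r, Csf2ra, Csf2rb2 and Il6ra) against 23.1% of all, and the GC box in 4 of 8 against 32.9%. The STAT letters were found in Csf2rb2 alone, against 7.18% of all. The RUNX letters were found in Epor alone, against 14.2%. No match to the ETS, GFI1 or TATA box letters was found in the 8 genes, against 12.2%, 12.7% and 13% of all. These are matches of letters, not measured sites of binding.

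Promoter peaks were compared by rank. A promoter covered 1 kb on each side of any annotated transcription start site (TSS), and the strongest peak of each gene, by fold enrichment over the local background, was ranked from 0 to 100 among the protein-coding genes of its library. A gene with no peak had rank 0. The fold enrichment at rank 50 was between 12.5 in GFI1-36S curcumin and 21.7 in GFI1-KD vehicle, so folds of different libraries are not on one scale. Those of gene body sites, which have no rank, are given as listed. A peak was present at 8 of the 9 promoters in the GFI1-36S vehicle, both GFI1-36N and the GFI1-KD vehicle lists. Of all protein-coding genes, 51.9%, 51.7%, 53.8% and 53.6% had a promoter peak in these lists. In GFI1-KD curcumin 7 of 9 receptor promoters had a peak (50.6% of all genes), and in GFI1-36S curcumin 3 of 9 (44.3%). Flt3, Il3ra and Il6ra had a peak in all 6 libraries, as did 42.6% of all genes. Without the library labelled GFI1-36S curcumin, 7 of 9 genes had a peak in every library, as did 48.4% of all genes. The 4 genes missing from that library alone were Kit, Csf3r, Csf2rb and Csf2rb2, where 12.1% of the genes with a peak in all of the other 5 libraries were missing.

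Over the 6 libraries, Il6ra had the highest median rank, 54.78, followed by Csf3r with 49.57, Il3ra with 43.49 and Csf2rb with 42.44. The lower group comprised Csf2rb2 with 14.87, Kit with 13.18, Flt3 with 12.56 and Epor with 8.29. Within each of these groups the ranges over libraries overlapped between neighbours. Without the library labelled GFI1-36S curcumin the upper 4 genes ranged from 28.85 to 99.94 and the lower 4 from 0 to 33.36, and Kit stood above Csf2rb2 by median.

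**Figure D1:**
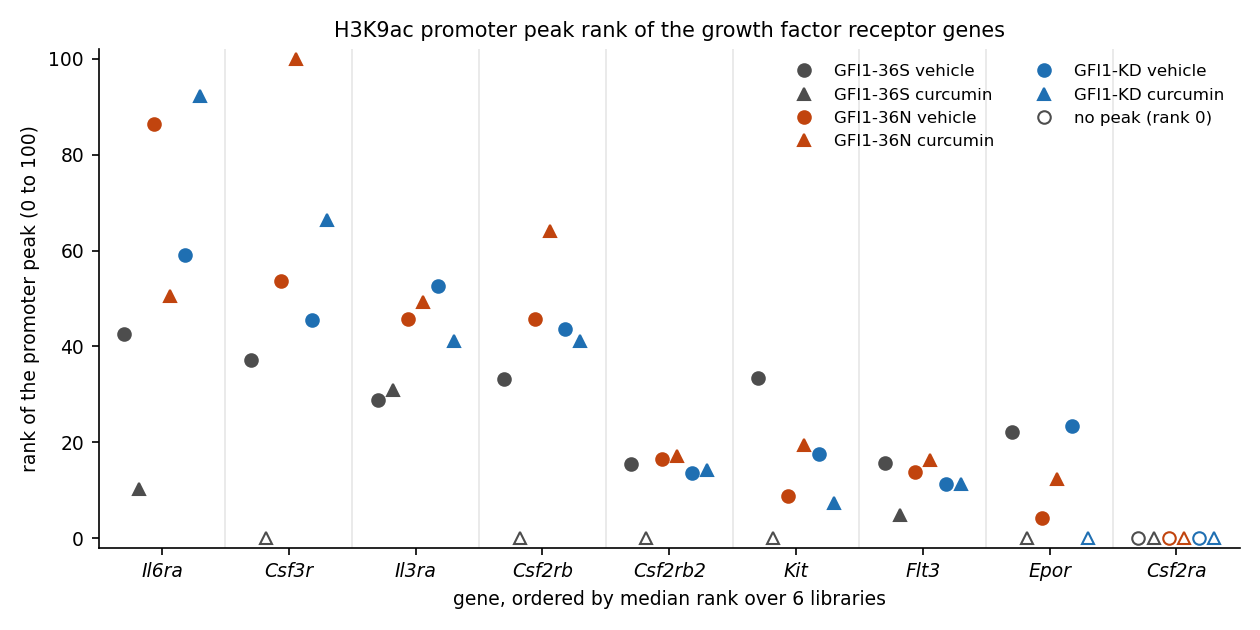
Rank of the strongest H3K9ac promoter peak (vertical axis, 0 to 100 within each library, no unit) for each gene, with circles for vehicle and triangles for curcumin and open symbols at 0 for no peak. Il6ra and Csf3r spread from low to above 90, whereas Csf2rb2 and Flt3 stay below 20 in every library.

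Kit lies on mm10 chromosome 5 from 75574916 to 75656722, on the plus strand. Its promoter peak had rank 33.36 in the GFI1-36S, 8.74 in the GFI1-36N and 17.62 in the GFI1-KD vehicle library. With curcumin the ranks were 0, 19.53 and 7.27. The rank was thus highest in GFI1-36S vehicle. With curcumin it changed by 10.79 points for GFI1-36N and by -10.35 points for GFI1-KD. The GFI1-36N summits held 34 fragments (vehicle) and 56 (curcumin), and the ratio of 1.65 had an exact 95% interval of 1.06 to 2.60 from counting error alone. In GFI1-KD mice the summit held 67 and 31 fragments, a ratio of 0.463 (0.292 to 0.718). In both genotypes the difference in unscaled fragments was beyond counting error, which does not include the spread between mice. The peak was 2548 bp wide in GFI1-36S vehicle and between 943 and 1527 bp elsewhere, and its summit lay 271 to 526 bp downstream of the nearest TSS. The stem and progenitor markers had a median change with curcumin of 0.12 points for GFI1-36N and 0.20 for GFI1-KD. Of 10 such markers, 9 (vehicle) and 7 (curcumin) had a peak for GFI1-36N, whereas GFI1-KD had 9 and 10. The gene nearest to Kit in rank over the 6 libraries after Arhgef25 was Hdc, histidine decarboxylase of mast cells and basophils, with mean absolute differences of 2.04 and 2.07 points. With vehicle and then curcumin, the GFI1-36N libraries had Hdc at 6.73 and 19.22, the GFI1-KD libraries at 18.84 and 8.24. Of the 5 mast cell and basophil markers, Hdc included, 3 had a peak in GFI1-36N curcumin and 1 in GFI1-36N vehicle and in both GFI1-KD libraries, while Cpa3 and Mcpt8 had none in any library. The part of these cells in the Kit values was not tested.

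Flt3, on mm10 chromosome 5 from 147330741 to 147400489 on the minus strand, varied less. Its rank was 15.7, 13.74 and 11.37 with vehicle in GFI1-36S, GFI1-36N and GFI1-KD mice. With curcumin it was 4.85, 16.39 and 11.22. The summit held 47 fragments in both GFI1-36N libraries, and 45 and 40 in the GFI1-KD libraries. The ratio of curcumin to vehicle was 1.0 (0.653 to 1.53) in GFI1-36N and 0.889 (0.566 to 1.39) in GFI1-KD mice. No difference in the unscaled fragments was thus detectable at this depth. A ratio of 0.48 (0.282 to 0.796) was found in GFI1-36S mice, where 50 fragments stood against 24. The genes nearest to Flt3 in rank were Ids and Klhl3, with mean differences of 1.38 and 1.44 points over 6 libraries.

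Il6ra, on mm10 chromosome 3 from 89864059 to 89913196 on the minus strand, had large opposite changes in GFI1-36N and GFI1-KD mice. Its rank was 42.55 in the GFI1-36S, 86.45 in the GFI1-36N and 58.99 in the GFI1-KD vehicle library. With curcumin it was 10.17, 50.57 and 92.28. The rank changed with curcumin by -35.88 points for GFI1-36N and by 33.3 points for GFI1-KD, and the ranks of GFI1-36N vehicle and GFI1-KD curcumin stood well above those of the other libraries. In GFI1-36N mice, 36 of 12022 genes with a promoter peak in either library had a more negative change, and in GFI1-KD mice 42 of 11908 genes had a more positive one. The fold enrichment went from 27.3 to 21.3 for GFI1-36N, and from 24.5 to 33.0 for GFI1-KD. The GFI1-36N summits held 189 (vehicle) and 122 (curcumin) fragments, a ratio of 0.646 (0.51 to 0.815). In GFI1-KD mice the summit held 178 and 198, a ratio of 1.11 with an interval of 0.904 to 1.37, which includes 1. These counts are not scaled for depth, so a ratio of 1 need not mean no change. The ratios of the fold enrichments were 0.78 for GFI1-36N and 1.35 for GFI1-KD. The local background on the scaled pile-up was 5.15 in GFI1-KD vehicle and 4.52 in GFI1-KD curcumin. The fold at rank 50 was 21.7 and 19.2, so both were lower with curcumin. The peak was similarly wide, 2371 to 2639 bp, in all libraries but the one labelled GFI1-36S curcumin, where it was 481 bp.

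Most monocyte marker genes changed with the sign of Il6ra, 7 of 9 for GFI1-36N and 8 of 9 for GFI1-KD. The exceptions were Cd14 (28.91 to 31.96) and F13a1 (39.27 to 40.76) for GFI1-36N, and Fcgr1 (15.31 to 11.96) for GFI1-KD. Of all protein-coding genes with a peak in either library of a pair, 39.9% were lower for GFI1-36N and 37.1% higher for GFI1-KD. The median change of the 9 markers with curcumin was -16.13 points for GFI1-36N and 18.49 points for GFI1-KD. All 9 had a promoter peak in these 4 libraries except Fcgr1 in GFI1-36N curcumin. Between vehicle libraries it was 24.13 points from GFI1-36S to GFI1-36N, where Il6ra differed by 43.9 points. Klf4, a transcription factor of monocytes, went from rank 76.42 to 43.15 for GFI1-36N and from 49.73 to 87.99 for GFI1-KD. The genes closest to Il6ra in rank over the 6 libraries were Cdkn1a, a cell cycle inhibitor, with a mean difference of 3.12 points, and Irf5, an interferon regulatory factor, with 4.58 points. Irf5 went from 91.32 to 44.38 for GFI1-36N and from 65.98 to 88.64 for GFI1-KD. The part of monocyte numbers in the Il6ra values was not tested.

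**Figure D2:**
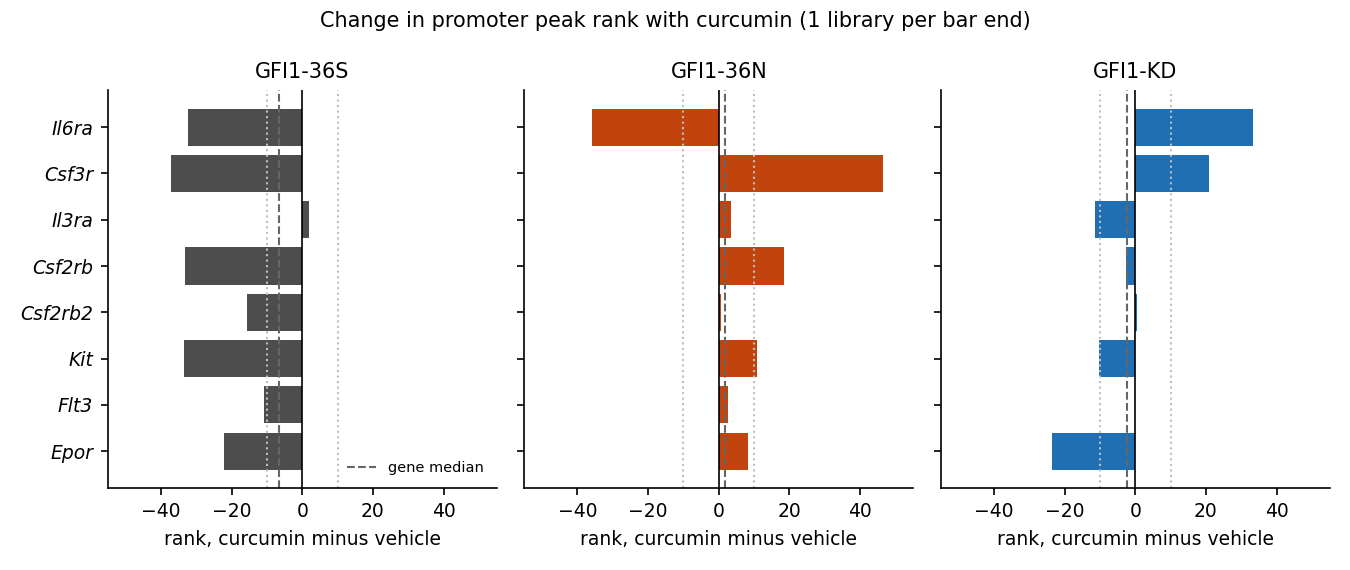
Rank with curcumin minus rank with vehicle for each receptor gene in the 3 genotypes (horizontal axis, points), with dotted lines at 10 points in either direction and a dashed line at the median of the protein-coding genes that had a peak with vehicle, curcumin or both. Il6ra points to the left in GFI1-36N and to the right in GFI1-KD mice, and the GFI1-36S bars point to the left apart from Il3ra.

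Csf3r, on mm10 chromosome 4 from 126024550 to 126044440 on the plus strand, reached the top of its list in 1 library. Its rank was 37.19, 53.56 and 45.57 with vehicle in GFI1-36S, GFI1-36N and GFI1-KD mice. With curcumin it was 0, 99.94 and 66.43. The summit held 98, 126 and 147 fragments with vehicle, while GFI1-36N curcumin held 325 and GFI1-KD curcumin 141. The GFI1-36N curcumin value was thus far above the other libraries, with a ratio to GFI1-36N vehicle of 2.58 (2.09 to 3.19). In GFI1-KD mice the rank was 20.85 points higher with curcumin. The unscaled ratio of fragments was 0.959 (0.756 to 1.22) and the ratio of the fold enrichments 1.16. The local background on the scaled pile-up went from 5.15 to 4.52. Of the 15 neutrophil markers, 14 had a peak in GFI1-KD vehicle and 8 in GFI1-KD curcumin, with a median change of -16.79 points, so Csf3r and the median of these markers had opposite signs there. For GFI1-36N 12 had a peak with either treatment and the median change was 5.59 points. The genes nearest to Csf3r in rank, Sfxn5 and Id1, were 8.63 and 8.86 points away on average over 6 libraries.

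The Csf3r peak of GFI1-36N curcumin was 22770 bp wide, whereas the other 4 Csf3r peaks were 2607 to 3572 bp wide. The peaks around it were not confined to the gene. In this library a stretch of 1.18 Mb, from 124997361 to 126179057 on chromosome 4, was 86.2% covered by 588 peaks, when peaks separated by at most 5 kb were joined. In the other 5 libraries, 0.935% to 3.72% of the same stretch was covered. The stretch began 1027.2 kb before the Csf3r start and ended 154.5 kb after it. All 12 bins of 100 kb that were at least 50% covered in GFI1-36N curcumin lay here, with 75.9% to 97.7% coverage, and the highest value elsewhere in this library was 40.4%. GFI1-KD vehicle had 1 such bin, elsewhere, with 50.6%, and the other 4 libraries had none.

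The neighbours of Csf3r shared the change. The stretch holds the TSSs of 12 other protein-coding genes, of which 11 had a promoter peak in both GFI1-36N libraries, and all 11 ranked higher with curcumin. Their fold enrichment with curcumin was 2.12 to 6.17 times that with vehicle, with a median of 2.83, and Csf3r itself had a ratio of 3.09. Outside the stretch the median ratio of 11100 genes was 1.21. In GFI1-36N curcumin 10 of these 12 genes were ranked above 99, and 9 of the 10 strongest peaks of the list lay in the stretch. Gnl2, Zc3h12a and Stk40, which encode a ribosome assembly GTPase, an RNA-degrading enzyme and a kinase-like protein, ranked 83.27, 87.51 and 80.41 with vehicle and 100, 99.99 and 99.93 with curcumin. Grik3, a glutamate receptor gene with no promoter peak in either library, was the exception. Within 1 Mb centred on the gene start, 57.4% of the sequence was covered for Csf3r in GFI1-36N curcumin and 0.068% to 8.34% for every other combination of receptor gene and library. More copies of the DNA and more acetylation per copy cannot be told apart from the peaks of 1 library, so the Csf3r value in GFI1-36N curcumin is given as a value of the stretch and not of the promoter.

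**Figure D3:**
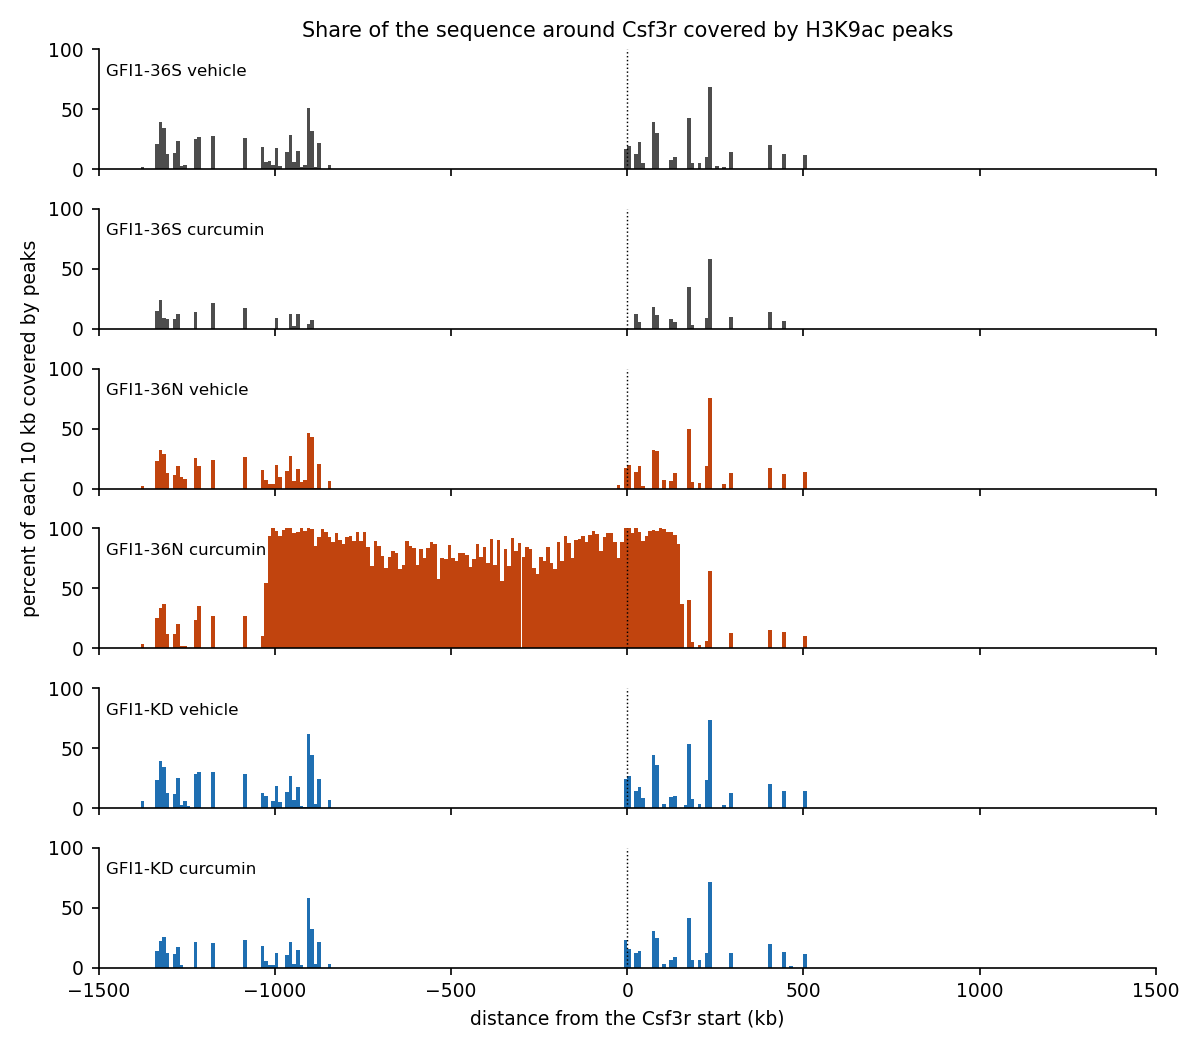
Percent of each 10 kb covered by H3K9ac peaks (vertical axis) against the distance from the Csf3r start (horizontal axis, kb) in the 6 libraries. GFI1-36N curcumin shows a block of coverage from about 1027.2 kb before the start to 154.5 kb after it that the other libraries lack.

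Csf2rb, the common β chain, lies on mm10 chromosome 15 from 78325752 to 78353847 on the plus strand. With vehicle its rank was 33.21, 45.76 and 43.74 in GFI1-36S, GFI1-36N and GFI1-KD mice. With curcumin it was 0, 64.13 and 41.14. The rank in GFI1-36N mice was 18.37 points higher with curcumin, and 728 of 12022 genes had a larger change. The fragments at the summit, 114 and 142, had a ratio of 1.25 (0.967 to 1.61), which is not scaled for depth. The local background on the scaled pile-up went from 5.66 to 4.78, and the ratio of the fold enrichments was 1.5. In GFI1-KD mice the summit held 160 and 114 fragments, an unscaled ratio of 0.713 (0.555 to 0.912). The local background on the scaled pile-up was 5.91 and 5.18. The ratio of the fold enrichments was 0.867 and the change in rank -2.60 points. The nearest genes in rank were Mfsd4b3 and Anxa1, 3.27 and 4.21 points away on average. All Csf2rb summits lay 290 to 359 bp downstream of the nearest TSS.

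Csf2rb2 lies next to it on chromosome 15 from 78282507 to 78305721, on the minus strand. Its rank stayed between 13.64 and 17.14 in the 5 libraries with a peak, and it had no peak in GFI1-36S curcumin. The peak was 997 to 1073 bp wide with 49 to 69 fragments at the summit. Csf2rb, its close copy, varied from 33.21 to 64.13 in the same libraries. Arl11 and Lipt1 were nearest to Csf2rb2 in rank, 0.993 and 1.31 points away on average. Of the words of 50 bases within 1 kb of the Csf2rb TSSs, 77.2% occurred once in the genome, and 93.8% for Csf2rb2, against at least 99.8% for the other 7 genes. Where else in the genome the repeated words occur was not examined. Reads from the repeated words could be placed at another occurrence or left out. How many were is not given in the lists.

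Il3ra, on mm10 chromosome 14 from 14346275 to 14356011 on the plus strand, was the receptor gene with the smallest change in rank between the GFI1-36S libraries among those with a peak, 2.04 points. Its rank was 28.85, 45.76 and 52.57 with vehicle in GFI1-36S, GFI1-36N and GFI1-KD mice and 30.89, 49.3 and 41.23 with curcumin. Both GFI1-36S libraries stood below the other 4. For GFI1-KD the rank changed by -11.34 points with curcumin and the summit held 163 and 111 fragments, a ratio of 0.681 (0.53 to 0.872). Trip13 and Brd9 were nearest in rank, each 3.86 points away on average. The start of an antisense gene, Gm48860, is annotated 213 bp from that of Il3ra, and H3K9ac peaks carry no strand, so the values cannot be assigned to either gene alone. The same holds for Il6ra, with Gm42809 at 246 bp, and Flt3, with Gm26597 at 935 bp.

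Csf2ra, on chromosome 19 from 61223957 to 61228429 on the minus strand, had no peak at its promoter or in its body in any of the 6 libraries, as was the case for the promoter of 42.8% of all genes. All words of 50 bases within 1 kb of its TSSs occurred once. Within 1 Mb centred on its start, 0.609% to 2.30% of the sequence was covered by peaks, so the lists do reach this end of the chromosome. The absence of a listed peak means only that the caller's threshold was not passed.

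Epor, on mm10 chromosome 9 from 21958897 to 21963506 on the minus strand, had the lowest median rank of the genes with a peak. Its rank was 22.23, 4.21 and 23.43 with vehicle in GFI1-36S, GFI1-36N and GFI1-KD mice. With curcumin it was 0, 12.37 and 0. The peak was thus listed with vehicle and missing with curcumin in both GFI1-36S and GFI1-KD mice. In GFI1-KD vehicle the peak was 2669 bp wide with 90 fragments at its summit, whereas GFI1-36N vehicle had 765 bp and 26 fragments. GFI1-KD vehicle held 3.46 (2.22 to 5.58) times the fragments of GFI1-36N vehicle. The GFI1-36N summits held 26 (vehicle) and 36 (curcumin) fragments, an unscaled ratio of 1.38 (0.813 to 2.39) within counting error. The ratio of the fold enrichments was 1.65.

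Erythroid marker genes had lower ranks together with Epor for GFI1-KD, but were mixed for GFI1-36N. In GFI1-KD vehicle 11 of 11 markers had a promoter peak and in GFI1-KD curcumin 6. All 11 were lower with curcumin, with a median change of -18.03 points, and Gata1, Hba-a1, Hbb-bs and Alas2 were among those with no peak. Of all protein-coding genes with a peak in either GFI1-KD library, 62.9% were lower and 6.73% lost their peak. For GFI1-36N 9 and 7 markers had a peak, 5 of the 10 with a peak in either library were higher and 5 lower, and the median change was 1.8 points, whereas Epor changed by 8.16 points. The transcription factor Gata1 went from 0 to 3.64 there and the membrane protein Slc4a1 from 9.96 to 0. The genes nearest to Epor in rank over 6 libraries were Abcg4 with a mean difference of 1.75 points and Tspo2, a protein of erythroid cells, with 1.78 points. The part of erythroid cell numbers in the Epor values was not tested.

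**Figure D4:**
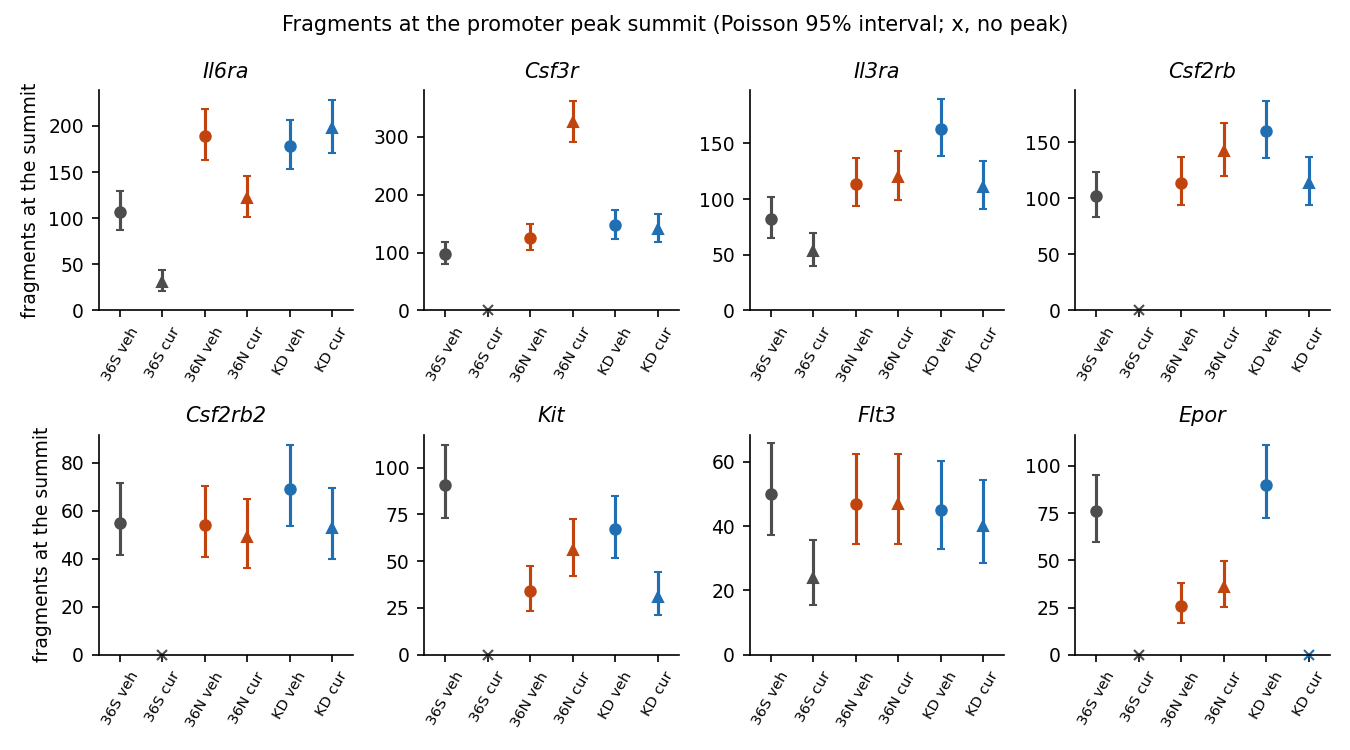
Fragments at the summit of the strongest promoter peak (vertical axis, count, with its own scale in each panel) for the 8 receptor genes with a peak, with Poisson 95% intervals that cover counting error only and crosses where no peak was listed, which are not counts of 0. Csf3r in GFI1-36N curcumin reaches 325, and Il6ra in GFI1-KD mice overlaps between vehicle and curcumin. The counts are not scaled for depth.

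Set side by side, the receptor genes differed in number and direction between the genotypes. A difference of at least 10 points in rank was counted, which is a fixed size and not a test. The genes compared in each pair are the protein-coding genes with a promoter peak in either of its libraries, 11608 for GFI1-36S, 12022 for GFI1-36N and 11908 for GFI1-KD. In GFI1-36N mice 3 genes were higher with curcumin (Csf3r, Csf2rb and Kit) and 1 lower (Il6ra), where 19.3% of the genes compared were higher and 11.3% lower. The Csf3r value in this count belongs to the covered stretch around the gene. No receptor promoter lost its peak in GFI1-36N mice, against 1.84% of the genes compared. In GFI1-KD mice 2 were higher (Il6ra and Csf3r) and 3 lower (Epor, Il3ra and Kit), where 9.47% of the genes compared were higher and 20.6% lower. The Epor promoter was the receptor promoter that lost its peak in GFI1-KD mice, as did 6.73% of the genes compared. In the GFI1-36S pair 0 genes were higher and 7 lower, 5 of them with no peak in the library labelled curcumin (Kit, Csf3r, Csf2rb, Csf2rb2 and Epor). There 15.0% of the genes compared were higher, 41.4% lower and 16.2% without a peak. The median change was -27.31 points for the 8 receptor genes with a peak and -6.61 for the genes compared in the GFI1-36S pair. The GFI1-36N pair had medians of 5.85 and 1.89, the GFI1-KD pair of -1.37 and -2.34. Without Csf3r the GFI1-36N median was 3.55.

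Between vehicle libraries, the pairs share libraries and their values are not independent. By its list name the GFI1-36N vehicle library is of a heterozygous mouse, so comparisons with it do not describe homozygous GFI1-36N mice. In GFI1-36N compared with GFI1-36S mice, 4 genes were higher (Il6ra, Il3ra, Csf3r and Csf2rb) and 2 lower (Kit and Epor), against 15.3% and 17.5% of the genes compared. In GFI1-KD compared with GFI1-36S mice, 3 were higher (Il3ra, Il6ra and Csf2rb) and 1 lower (Kit), against 16.4% and 9.97%. Kit differed from GFI1-36S by -24.62 points in GFI1-36N and by -15.73 points in GFI1-KD mice. Its unscaled summit fragments had ratios of 0.374 (0.244 to 0.56) and 0.736 (0.529 to 1.02), and its fold enrichments 0.325 and 0.602. In GFI1-KD compared with GFI1-36N mice, 1 gene was higher (Epor, 19.22 points) and 1 lower (Il6ra, -27.46 points), against 18.6% of the genes compared higher and 10.7% lower. The unscaled Il6ra fragments there had a ratio of 0.942 (0.763 to 1.16), which includes 1, and the fold enrichments a ratio of 0.897. No receptor promoter with a peak in the first library of these 3 comparisons lacked one in the second, against 3.40%, 2.10% and 2.36% of the genes compared. The medians were 6.77 for the receptor genes and -0.67 for the genes compared, 4.79 and 1.14, and -2.2 and 1.73 in these 3 comparisons. The first 2 became 1 and 1.2 without Csf3r and 12.55 and 8.38 without Csf2rb2, and the third became -0.12 with ranks by −log10 p, so these medians rest on single genes and settings.

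Inside the gene bodies, overlapping peaks of the libraries merged into 34 sites outside the promoters, after leaving out the Csf3r peaks of GFI1-36N curcumin. None was present in all 6 libraries, 15 were present in at least 3 and 16 in 1. Csf3r, Csf2ra and Il3ra had none. The strongest internal folds reached 10.5 for Il6ra in GFI1-KD curcumin and 11.6 for Flt3 in GFI1-36N curcumin. Flt3 was the only receptor gene in which an internal site was stronger than the promoter. A site in intron 1, 7.1 kb into the gene, had a peak in all libraries but GFI1-36S curcumin, with a fold enrichment of 9.42 in GFI1-36S vehicle. It went from 7.48 with vehicle to 11.6 with curcumin for GFI1-36N, and from 5.35 to 9.60 for GFI1-KD. The promoter of Flt3 had 8.58, 6.90, 8.31, 6.31 and 6.80 in the same order. The intron 1 site was thus stronger than the promoter of its own gene in these libraries other than GFI1-KD vehicle. The sequence printed for it above contains PU.1, RUNX and TATA box letters. A site in intron 9, 37.5 kb into the gene, had peaks in the same 5 libraries with folds of 4.63 to 9.11.

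The library labelled GFI1-36S curcumin had another pattern at Flt3. Its strongest peak in the gene, with a fold of 8.90, lay in intron 20, 59.5 kb into the gene, where GFI1-36N vehicle and curcumin had 4.75 and 3.81 and the other 3 libraries had none. At Il6ra this library had 3 sites that no other list held, and it lacked the site in intron 1, 2.4 kb into the gene, which the other 5 libraries had with folds of 5.12 to 10.5. That site went from 7.91 to 6.58 for GFI1-36N and from 8.46 to 10.5 for GFI1-KD, each time in the direction of the promoter rank. The share of Il6ra covered by peaks went from 15.6% to 9.30% for GFI1-36N and from 14.1% to 11.3% for GFI1-KD, so the covered length was smaller with curcumin in GFI1-KD while the promoter rank was higher.

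Kit had 8 sites, all with folds of 2.84 to 4.39, of which 6 were in GFI1-36S vehicle alone and 1 in GFI1-36N curcumin alone. The GFI1-36S vehicle sites included 4 between 3.5 and 4.9 kb into the gene, so the library with the highest Kit promoter rank also had the most Kit sites. Csf2rb had a site in intron 2, 2.7 kb into the gene, in 5 libraries with folds of 2.75 to 4.33, and a further one at 5.1 kb with 5.61 and 5.71 in GFI1-36N and 2.38 in GFI1-KD vehicle. Epor had 1 site, in exon 3 of 8 at 1.6 kb, with folds of 7.91, 3.17 and 3.03 in the 3 vehicle libraries. GFI1-36N curcumin had 2 peaks reaching the Epor promoter window, the stronger 791 bp wide, and 2051 bp of the gene was covered. Peaks reaching the window were not counted as gene body sites. GFI1-36N curcumin thus cannot be said to lack a peak at exon 3. Neither curcumin library of GFI1-36S and GFI1-KD mice had any peak in Epor.

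**Figure D5:**
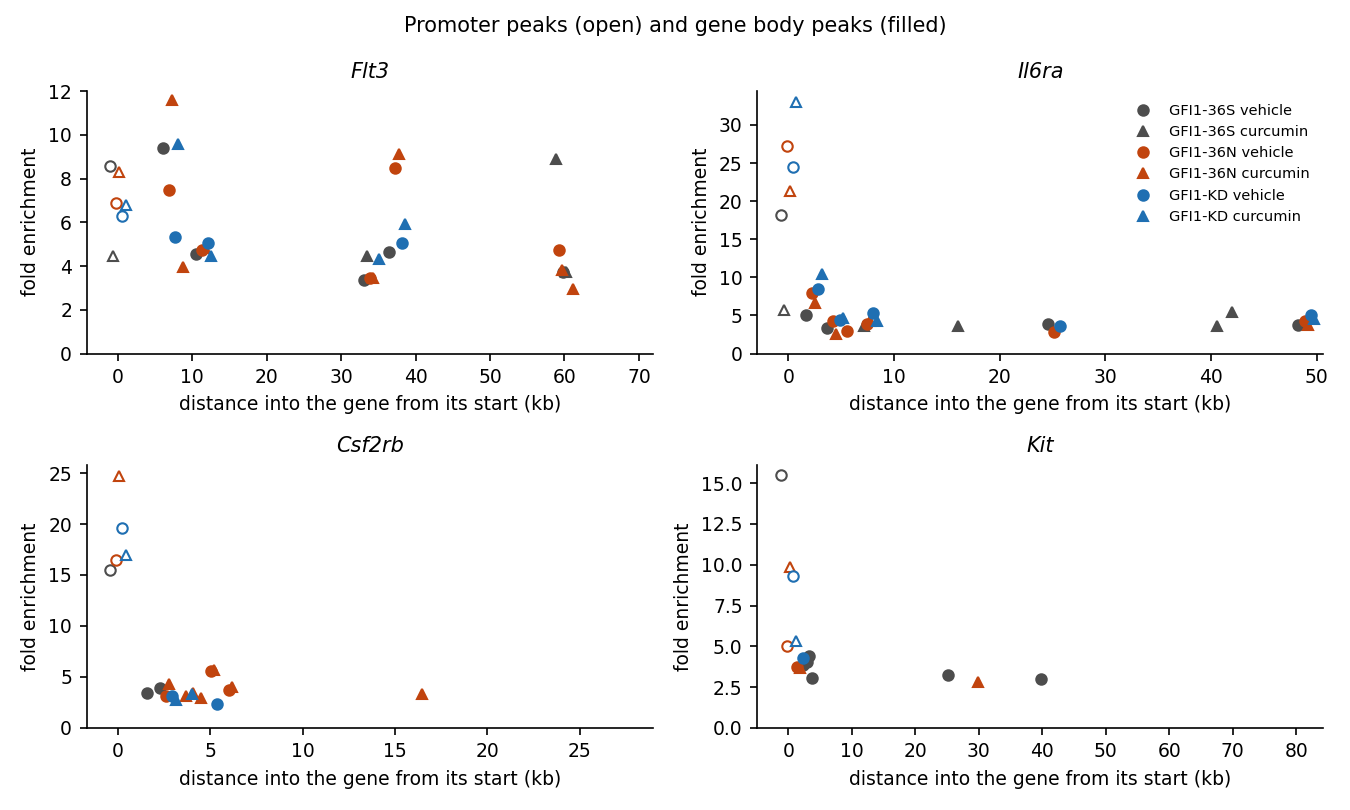
Fold enrichment (vertical axis) of promoter peaks (open) and gene body peaks (filled) against the distance into the gene (horizontal axis, kb) for Flt3, Il6ra, Csf2rb and Kit, with circles for vehicle and triangles for curcumin and symbols shifted sideways by library to separate them. In Flt3 the filled symbols at 7.1 kb reach 11.6, above the open ones, whereas in the other 3 genes the promoter is the highest.

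The rest of the pathway was read from a list of 50 genes by role. Of 9 ligand genes, 3 to 4 had a promoter peak in a library, and Kitl, Csf3, Csf2, Il3 and Thpo had none in any. Epo ranked 64.13 to 71.38, but a transcript of Epo starts 11 bp from that of the G protein gene Gnb2, so this peak cannot be assigned to Epo. All 17 signal transducers (among them JAKs, STATs, SRC family kinases and adaptors) had a peak in 5 libraries and 15 in GFI1-36S curcumin. Their median ranks were 72.97 to 79.5 in the 5. All 10 inhibitors had a peak in every library, with medians of 36.02 to 59.81, and the 8 target genes had medians of 51.62 to 68.49 outside GFI1-36S curcumin.

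Differences of at least 10 points in the pathway list were read against the same shares of the genes compared as above. For GFI1-36N 8 of 43 genes with a peak in either library were higher with curcumin and 3 lower. The shares of the genes compared were 19.3% and 11.3%. For GFI1-KD 4 of 42 were higher and 11 lower, against 9.47% and 20.6%. For GFI1-36S the counts were 6 of 43 and 28, against 15.0% and 41.4%. Between vehicle libraries 6 of 43 were higher and 9 lower from GFI1-36S to GFI1-36N, against 15.3% and 17.5%. From GFI1-36S to GFI1-KD the counts were 10 and 4, against 16.4% and 9.97%. From GFI1-36N to GFI1-KD they were 15 and 4, against 18.6% and 10.7%.

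The gene with the largest change of each role was then read for each curcumin pair. Among ligands it was Flt3l, the ligand of Flt3, in all 3. Flt3l went from 38.29 to 9.44 for GFI1-36S, from 21.84 to 38.69 for GFI1-36N and from 41.44 to 26.62 for GFI1-KD, while Flt3 changed by at most 2.65 points outside GFI1-36S. Among the other receptor chains, Csf1r, the receptor of macrophage colony stimulating factor, went from 42.8 to 21.88 for GFI1-36N, and from 25.22 to 55.26 for GFI1-KD. Il6st, the signalling partner of Il6ra, went from 39.81 to 70.1 for GFI1-KD and from 50.82 to 46.16 for GFI1-36N, each with the sign of Il6ra. For GFI1-36S it went from 36.62 to 80.57, against the sign of Il6ra.

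Among transducers, the adaptor Gab2 went from 95.54 to 7.79 for GFI1-36S and Jak3 from 43.44 to 62.89 for GFI1-36N. Among inhibitors, Spred1 went from 66.74 to 19.51 for GFI1-36S, Socs3 from 18.24 to 34.92 for GFI1-36N and Socs1 from 67.37 to 29.83 for GFI1-KD. Among targets, Myc went from 51.57 to 74.76 for GFI1-36N. Ccnd2, a cyclin of cell cycle entry, went from 48.36 to 0.66 for GFI1-36S and from 47.1 to 5.39 for GFI1-KD. Between vehicle libraries the target with the largest change was Id1 from GFI1-36S to GFI1-36N (46.99 to 63.29), and Bcl2l1, a survival gene, in both comparisons of GFI1-KD, where it ranked 94.51 against 65.5 in GFI1-36S and 55.74 in GFI1-36N.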

How the data were processed

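H3K9ac peak lists of 6 BM libraries were used, 1 per genotype and treatment as labelled. The input and IgG samples were not used here. The authors trimmed reads with Trim Galore, mapped them to mm10 with BWA-MEM, called peaks with MACS2 and removed black list regions. The control of each list and the handling of duplicates are not given in the sources used here. The deposited fold enrichment is a ratio to the local background, and the −log10 p, −log10 q and integer score of each peak are also the authors'. None is normalized between libraries.

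Promoter ranks were computed in Python 3.11.15 (pandas 2.3.3, numpy 2.4.6, scipy 1.17.1; figures with matplotlib 3.10.9) from GENCODE M21 basic transcripts. A peak overlapping by 1 bp the 1000 bp on either side of a TSS was assigned to that gene. Summit fragments were solved from the fold and p that MACS2 derives from them, within 0.01 on the −log10 p scale, and ratios of fragments carry exact 95% intervals and are not scaled for depth. Peak loss, ranks and the recovery of unscaled fragments were tested on simulated data. The scaled recovery of fragments and the gene body, stretch, sequence and interval steps were not. The 9 genes, the pathway and marker lists and the alternatives were chosen with earlier results of these data known. The genes named are the 9 receptors, the pathway gene of each role with the largest change, the 2 genes nearest in rank to each receptor, and marker genes. Of the pathway genes, those of the curcumin pairs are given, apart from a transducer that is not reported here, and those of the vehicle pairs for targets. Neighbours of Csf3r and of other starts, single marker genes, and Csf1r and Il6st in a second genotype were named after their values were seen. Alternatives were another window, summit position, ranking, peak threshold, list length, TSS and biotype, and the GFI1-36S treatments exchanged.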

Additional observations from a re-analysis of the deposited data

Results flagged for a closer look

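At Kit, Csf3r, Csf2rb and Il6ra curcumin went with changes in rank of at least 10 points in opposite directions in 2 or more genotypes. The share of all protein-coding genes with such opposite changes was not computed, so their number is not read as a result about the receptors. None of these differences between genotypes was tested, since each group has 1 library. At Kit the change was -33.36 points for GFI1-36S, 10.79 for GFI1-36N and -10.35 for GFI1-KD. For Csf3r it was -37.19, 46.38 and 20.85 points in the same order, and the GFI1-36N value belongs to the covered stretch around the gene. The Csf2rb changes were -33.21 points in GFI1-36S and 18.37 points in GFI1-36N mice. For Il6ra the values were -32.38 points for GFI1-36S, -35.88 for GFI1-36N and 33.3 for GFI1-KD. The 4 GFI1-36S values rest on the library without neutrophil and progenitor marker peaks and change sign if its treatments are exchanged. The sign between GFI1-36N and GFI1-KD mice differs for Kit and Il6ra without any use of that library.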

How the results depend on the processing

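No paired analysis was possible because each group has 1 library and the labels give no replicate numbers. Of 48 changes in rank, 28 were at least 10 points. All 28 kept their direction under 8 alternatives, with the exchange of treatments aside, and 22 stayed at 10 points or more in all of them. The other 6 came below 10 points in size under at least 1 alternative: Kit for GFI1-36N (9.45) and GFI1-KD (-9.37), Il3ra for GFI1-KD (-7.46), Flt3 and Csf2rb2 for GFI1-36S (-5.15 and -9.78), and Csf2rb between GFI1-KD and GFI1-36S vehicle (9.47). The median change of the receptor genes moved more than its tolerance as follows. In GFI1-36S it was -25.41 with −log10 q of at least 5, -22.73 with equal list lengths, -30.35 with all biotypes, -32.38 without Csf2rb2 and -22.23 without Csf3r. In GFI1-36N it was 3.37 with equal list lengths, 7.36 with all biotypes, 8.16 without Csf2rb2 and 3.55 without Csf3r. Between vehicle libraries of GFI1-36N and GFI1-36S it was 5.26 by −log10 p, 12.55 without Csf2rb2 and 1 without Csf3r. Between GFI1-KD and GFI1-36S it was 8.38 without Csf2rb2 and 1.2 without Csf3r, and between GFI1-KD and GFI1-36N -0.12 by −log10 p. The alternatives with all annotated transcripts or without Csf3r were chosen after seeing the data. A median over so few genes thus rests on single members.

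With the GFI1-36S treatments exchanged, the GFI1-36S median became 27.31 and Kit, Flt3, Csf3r, Csf2rb, Csf2rb2, Il6ra and Epor became 33.36, 10.85, 37.19, 33.21, 15.5, 32.38 and 22.23. GFI1-36N against GFI1-36S vehicle then had 3 genes with a peak in both libraries, a median of 15.68, and Kit and Epor at 8.74 and 4.21. GFI1-KD against GFI1-36S had 3 genes, a median of 22.55 and Kit at 17.62. Without the library labelled GFI1-36S curcumin, 7 genes had a peak in every library.

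The lists give no read totals or replicate spread, so intervals cover counting error only. A missing peak means that the caller's threshold was not passed.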

Other observations

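Hoxa9, a stem and progenitor marker and a gene of leukaemic self-renewal, had a promoter rank of 97.4 in GFI1-36S vehicle, 99.36 and 99.68 in GFI1-36N and 99.19 in GFI1-KD curcumin, but 11.0 in GFI1-KD vehicle, where S100a8 and S100a9, calcium-binding proteins of mature neutrophils, ranked 74.89 and 59.91. S100a8 ranked 10.17 to 25.46 in the other libraries with a peak. Kit, at 17.62, stood between its other values in this library. These genes were singled out after their values were seen. From GFI1-36S to GFI1-KD vehicle, 4 stem and progenitor markers were higher and 6 lower, with a median change of -0.81 points. Of the neutrophil markers 10 were higher and 4 lower, with a median change of 7.26 points. From GFI1-36N to GFI1-KD vehicle, 11 neutrophil markers were higher and 3 lower, with a median change of 13.94 points. In GFI1-KD vehicle the progenitor markers Lmo2 and Erg ranked 97.48 and 60.31. The neutrophil markers Elane and Mpo, which were among the lower ones, ranked 6.32 and 14.53. The list medians there were 11.18 for stem and progenitor and 16.44 for neutrophil markers, against 13.28 and 14.01 in GFI1-36S vehicle.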
